A study of Homo sapiens with 2 samples.

Results

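Translation initiation and elongation factors are the soluble proteins that bring a ribosome to the start codon of an mRNA and then move it along the coding sequence. The set described here was every protein-coding row of the deposited gene table whose symbol began with EIF or EEF and held no hyphen, leaving out the eIF2α kinases named EIF2AK. The rule found 67 of 46427 rows. EIF1AY, on the Y chromosome, is among them and no value is given for it, which leaves 66 genes. A gene was called measured when it had at least 50 counts in at least 1 library, and 63 of the 66 were.

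Initiation begins when eIF2 carries the initiator methionyl-tRNA to the small ribosomal subunit together with eIF1, eIF1A, eIF3 and eIF5. The eIF4F complex, made of the cap-binding protein eIF4E, the scaffold eIF4G and the helicase eIF4A, recruits the mRNA, and 4E-BP proteins block it by taking eIF4E away from eIF4G. During elongation eEF1A delivers aminoacyl-tRNA, the eEF1B subunits recharge eEF1A with GTP, and eEF2 drives translocation. Cells lower initiation when amino acids run short, through phosphorylation of eIF2 and through loss of mTORC1 signalling to the 4E-BPs, and slow elongation through phosphorylation of eEF2. That control acts mainly on proteins, and only mRNA was read here.

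Cells of the line given as MiaPaca2, derived from a pancreatic adenocarcinoma, received vehicle or iMQT_020 for 48 hours. The series presents iMQT_020 as a compound that inhibits the mitochondrial transporter of glutamine, and its dose is not given in the sources used here. Each treatment had 1 library, so no difference below has a replicate check, no test between treatments was possible, and the treatment cannot be told apart from any other difference between the libraries. Words such as higher and lower describe these 2 libraries only.

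Estimated counts summed to 67095283 with vehicle and 59139157 with iMQT_020, and pairs of values below are given in that order. The line name was checked against marker genes. CDKN2A and MTAP, which lie in a segment known to be deleted in MIA PaCa-2, had 278 and 208 TPM and 33.7 and 26.2 TPM, against the label. Of 9 markers of pancreatic carcinoma lines, 4 reached 1 TPM in each library (KRT8, KRT18, VIM and ANXA1), and KRT7 and KRT19 had 0 counts in both. Which line the cells belong to is thus open to doubt. Of 4 fibroblast, 3 leukocyte and 2 endothelial markers, COL1A1 (16.5 and 11.1 TPM) and CD68 (0.985 and 1.44 TPM) were the only ones at 1 TPM in either library, while COL1A2, DCN and PTPRC had 0 counts in both; their part in the results was not tested. Bulk RNA does not separate fewer cells of a kind from less RNA per cell.

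Most of these mRNAs differed little between the libraries. Counts were scaled to library size (CPM), and the log2 of the scaled count with iMQT_020 divided by that with vehicle is called the log2 ratio, so that values below 0 mean a smaller share of the library with iMQT_020. Of the 63, 0 were 2-fold or more higher with iMQT_020, where 2.15% of all 14805 measured genes were, and 0 were 2-fold or more lower, against 3.09%. At 1.5-fold, 0 were higher (6.3% of all measured genes) and 3 were lower, EIF4EBP1, EEF1A2 and EIF1AD (10.2%). A smaller bound was set at 0.32 on the log2 scale, which is 25% more in one library than in the other. Beyond it, 3 genes were higher, EIF4G2, EIF5A2 and EIF4G3 (17.4%), and 9 were lower (21.8%). These were EIF4EBP1, EEF1A2, EIF1AD, EEF2KMT, EEF1AKMT3, EIF6, EEF1AKMT1, EEF2K and EEF1B2. The shares of members, 4.76% higher and 14.3% lower at this bound, were below those of all genes. Most members are abundant: 60 of them reached 1000 counts in a library, of which 3 were beyond 0.32 above 0 and 7 below, and among all 9312 genes that abundant the shares were 14.1% and 15.9%. At 2-fold, only 0.322% of those 9312 genes were higher and 0.956% lower, beside 0 of the 60 members. At 1.5-fold, 2.59% were higher and 5.42% lower. Of the 60 members, 0 were higher and 3 lower (5.0%), the latter near the share of genes that abundant.

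As a list, the members lay slightly below the middle of all genes. The median log2 ratio was −0.10 over the members and −0.02 over all measured genes. Of the 63, 44 lay below 0 (69.8%), against 52.7% of all measured genes, and 19 above (47.3% of all). The counts are large enough that the 95% counting interval lay below 0 for 40 members, above 0 for 13 and across 0 for 10. Over all measured genes, such intervals lay below 0 for 39.1% and above 0 for 35.0%. This comparison is not matched for abundance: 60 of the 63 members reached 1000 counts, against 9312 of all 14805 genes, and larger counts give narrower intervals. The counting intervals, given in parentheses after a log2 ratio, hold counting error alone and say nothing of variation between cultures. A centred ratio is the log2 ratio less the median of genes of like transcript length and GC content, given mainly where it turns a direction or a call.

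**Figure D1:**
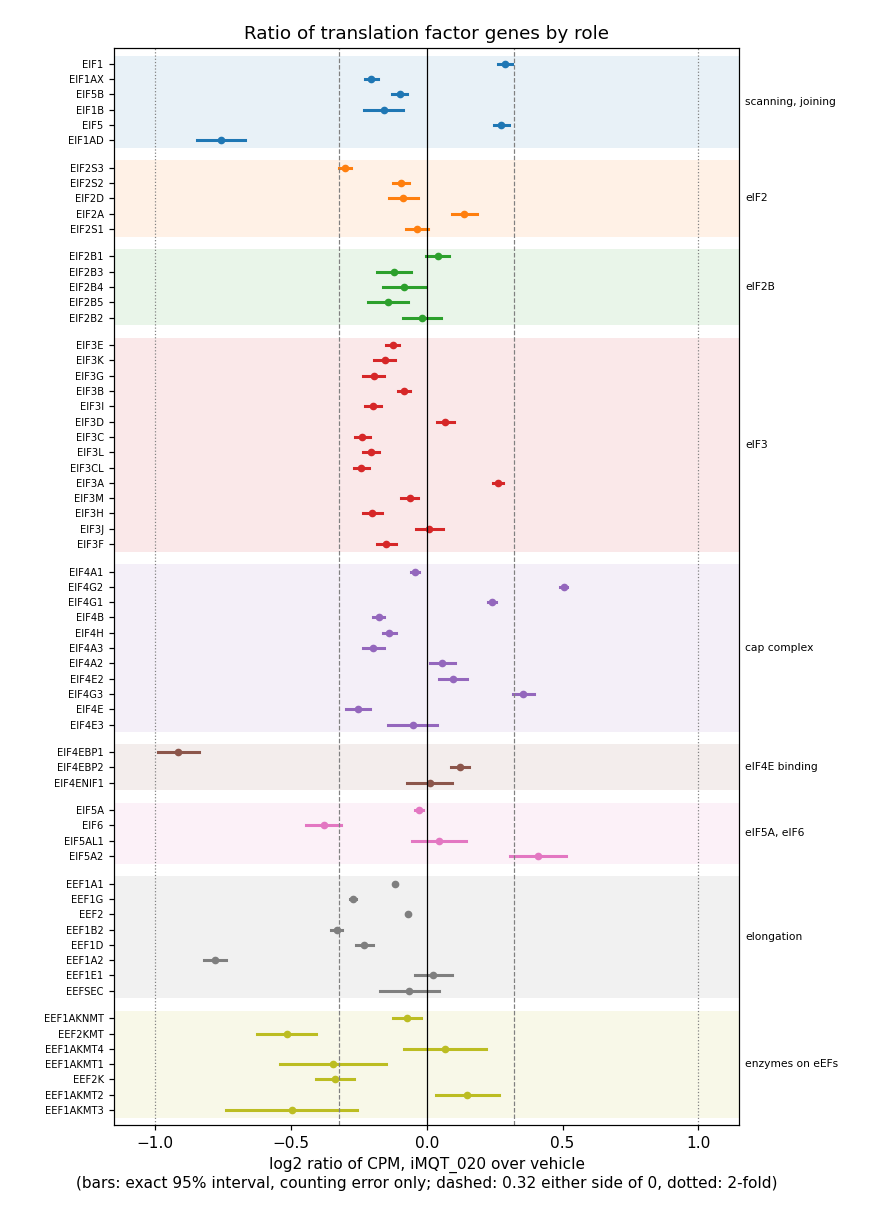
Log2 ratio of CPM, iMQT_020 over vehicle (x axis), for the 63 measured translation factor genes, ordered within each role by vehicle TPM. Points are ratios and bars exact 95% intervals for counting error. All points lie inside the dotted 2-fold lines, and EIF4EBP1, EEF1A2 and EIF1AD lie farthest to the left.

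Many of the most abundant of these mRNAs begin with a terminal oligopyrimidine tract, a C followed by a run of C and T, which places their translation under mTORC1 through LARP1 and the 4E-BPs. The RefSeq table of annotated starts (GRCh38.p14) holds a start for 53 of the 66 genes. A gene was counted when, at any of its annotated starts, the first transcribed base was C and at least the next 4 bases were each C or T, read on the strand of the gene. Such a start was present in 13 of the 53 genes (24.5%) and in 6.33% of 15515 protein-coding genes in the same table. The windows below show it in 12 of the 13, from 15 bases before the start to 15 bases from it onward, written 5′ to 3′ on the strand of the gene, with the tract in capitals. The remaining one is EIF2S3B, a copy of EIF2S3 with very few reads.

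EEF1A1 at chr6:73521018-73521047, minus strand: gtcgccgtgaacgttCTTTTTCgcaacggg
EEF2 at chr19:3985449-3985478, minus strand: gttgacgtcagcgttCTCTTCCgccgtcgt
EEF1B2 at chr2:206159880-206159909, plus strand: ccggtctcttcgggtCCTTTTTCCTCTCTT
EIF3D at chr22:36529152-36529181, minus strand: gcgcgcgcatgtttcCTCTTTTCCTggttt
EIF3F at chr11:7987322-7987351, plus strand: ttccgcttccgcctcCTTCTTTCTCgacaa
EIF3K at chr19:38619173-38619202, plus strand: ttccgtttccaccacCTCTTCCTgttcccg
EIF3M at chr11:32583816-32583845, plus strand: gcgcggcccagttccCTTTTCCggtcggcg
EIF4B at chr12:53006441-53006470, plus strand: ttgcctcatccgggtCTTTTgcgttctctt
EIF4A2 at chr3:186783562-186783591, plus strand: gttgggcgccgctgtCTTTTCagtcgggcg
EIF2S3 at chrX:24054941-24054970, plus strand: ggggtgatttccttcCTCTTTTggcaacat
EIF2A at chr3:150546772-150546801, plus strand: tcacccgagcggtttCTCTTTCCgggacaa
EIF2D at chr1:206612451-206612480, minus strand: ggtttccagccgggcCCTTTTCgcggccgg

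Further abundant members without such a start are shown for contrast, chosen after their values were seen: EIF4G2 and EIF1, whose ratios were above 0, and EEF1G, which is known as a tract-bearing mRNA although its start in this table does not meet the rule.

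EIF4G2 at chr11:10808912-10808941, minus strand: cagacacgccttagcgccagcagtgagtcg
EIF1 at chr17:41688870-41688899, plus strand: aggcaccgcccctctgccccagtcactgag
EEF1G at chr11:62573877-62573906, minus strand: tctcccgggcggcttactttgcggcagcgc

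The medians of members with and without a tract were close. The 12 measured members with a tract had a median log2 ratio of −0.10, from −0.33 (EEF1B2) to 0.14 (EIF2A), and 3 of them lay above 0. The 38 measured members with an annotated start and no tract had a median of −0.05, with 15 above 0. Of all measured genes, 47.3% lay above 0. Centred, the members with a tract had a median of −0.08, with 6 above 0 and 6 below. Those without had −0.01, with 17 of 37 above and 20 below. Over protein-coding genes outside this set as well as in it, the medians were −0.06 for 793 measured genes with a tract and −0.01 for 9740 without. A list of 15 members known as tract-bearing mRNAs was drawn from general knowledge, with earlier results of these data known. It includes genes with no start in the table. Of the genes with a tract shown above, it leaves out EIF2A, EIF3D and EIF4A2, at 0.14, 0.07 and 0.06, and EIF2S3 and EIF2D, at −0.30 and −0.09. The list had a median of −0.18, with EIF3A alone above 0, where the other 48 measured members had −0.07. That split depends on which genes were listed. Centred, these medians were −0.18 and −0.02, with 10 of the 15 below 0 (49.8% of all genes so centred). The E-box CACGTG, the letters bound by MYC and its partners, which read the same on both strands, was found in the 300-base promoter windows of 14 of the 53 members (26.4%) and of 11% of protein-coding genes. The 13 measured members holding it had a median log2 ratio of −0.15, and the 37 without it −0.04 (centred −0.06 and 0.00). Over protein-coding genes the medians were −0.04 with it and −0.01 without. The letters TTGCATCA, searched on both strands as a site of the ATF4 type, were in 0 of the 53 windows and 0.909% of protein-coding genes. With a share that low, 0 of 53 cannot set the members apart from other genes. The 13 members without an annotated start, EIF4EBP1 and EEF1A2 among them, were not searched for any of these letters.

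The elongation factors included the most abundant members, and 7 of 8 were lower with iMQT_020 (52.7% of all measured genes). Their median log2 ratio was −0.17. Centred, it was 0.01, with 4 of 8 below 0 (49.8% of all genes so centred). EEF1A1, on chromosome 6 (73515750 to 73521032, GRCh38.p14), encodes the main eEF1A and had more counts than any other gene of either library, 583429 with vehicle and 476639 with iMQT_020. Counts also depend on transcript length, and by mean TPM it ranked 10 among all genes. It was at 5574 and 5316 TPM, with a log2 ratio of −0.12 (−0.12 to −0.11). EEF2, the translocase, was at 3337 and 3284 TPM, a log2 ratio of −0.07 (centred 0.10). EEF1A1 and EEF2 thus sat near the middle of all genes, with 39.9% and 45% of measured genes at a lower ratio.

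The guanine nucleotide exchange subunits of eEF1B were a little lower together. EEF1G, the structural γ subunit, had 173835 and 127509 counts, 4034 and 3454 TPM, and a log2 ratio of −0.27 (−0.28 to −0.26). EEF1B2, a catalytic subunit, had 52402 and 36843 counts, with 2050 and 1685 TPM and a log2 ratio of −0.33 (−0.35 to −0.31). EEF1D, the other catalytic subunit, was at 383 and 326 TPM, a log2 ratio of −0.23. Their proportions were alike in both libraries, with EEF1G at 10.5 times EEF1D by TPM in the vehicle library and 10.6 times in the other. Centred, EEF1G, EEF1B2 and EEF1D were at −0.06, −0.18 and 0.07.

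EEF1A2, the eEF1A copy of muscle and neurons, showed the largest difference of the elongation factors. It lies on chromosome 20 (63488014 to 63499083) and had 14828 counts with vehicle and 7642 with iMQT_020, or 281 and 169 TPM. Its log2 ratio was −0.78 (−0.82 to −0.74), 1.72-fold lower, and 5.88% of measured genes had a lower ratio. Its share of EEF1A1 and EEF1A2 together was 4.79% of their TPM in the vehicle library and 3.08% in the other. Its transcript is rich in G and C (64.6%), and the ratio centred on GC content and length was −0.48. LOC124904955 overlaps EEF1A2 in the RefSeq table, and reads of the pair cannot be told apart without the strand. EEF1E1, which despite its symbol encodes a scaffold of the aminoacyl-tRNA synthetase complex, was at 0.02, and EEFSEC, which delivers selenocysteyl-tRNA, at −0.06 (centred 0.12), with intervals across 0.

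Enzymes that modify elongation factors were on the low side. Their median log2 ratio was −0.34 over 7 genes, 5 of them below 0 (52.7% of all measured genes) and 4 lower beyond 0.32 (21.8%). By deposited TPM, EEF2K (−0.22) and EEF1AKMT1 (−0.25) were no longer beyond 0.32, which left 2 of 7 (16.3% of all measured genes by TPM). EEF2KMT, a lysine methyltransferase of eEF2, had 1847 and 1143 counts, a log2 ratio of −0.52 (−0.62 to −0.41); ALG1 overlaps it in the RefSeq table, and reads of the pair cannot be told apart without the strand. EEF2K, the kinase that phosphorylates eEF2 and slows elongation, had 4084 and 2859 counts, with a ratio of −0.34 (−0.41 to −0.27). The eEF1A methyltransferases differed among themselves. EEF1AKMT3, with 373 and 234 counts, was at −0.50 (−0.74 to −0.26), and EEF1AKMT1, with 531 and 370 counts, at −0.34 (−0.54 to −0.15; centred −0.19). EEF1AKMT2 was at 0.15, EEF1AKMT4 at 0.07 (centred 0.36) and EEF1AKNMT at −0.07. EEF1AKMT4 had 742 and 688 counts and an interval across 0.

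**Figure D2:**
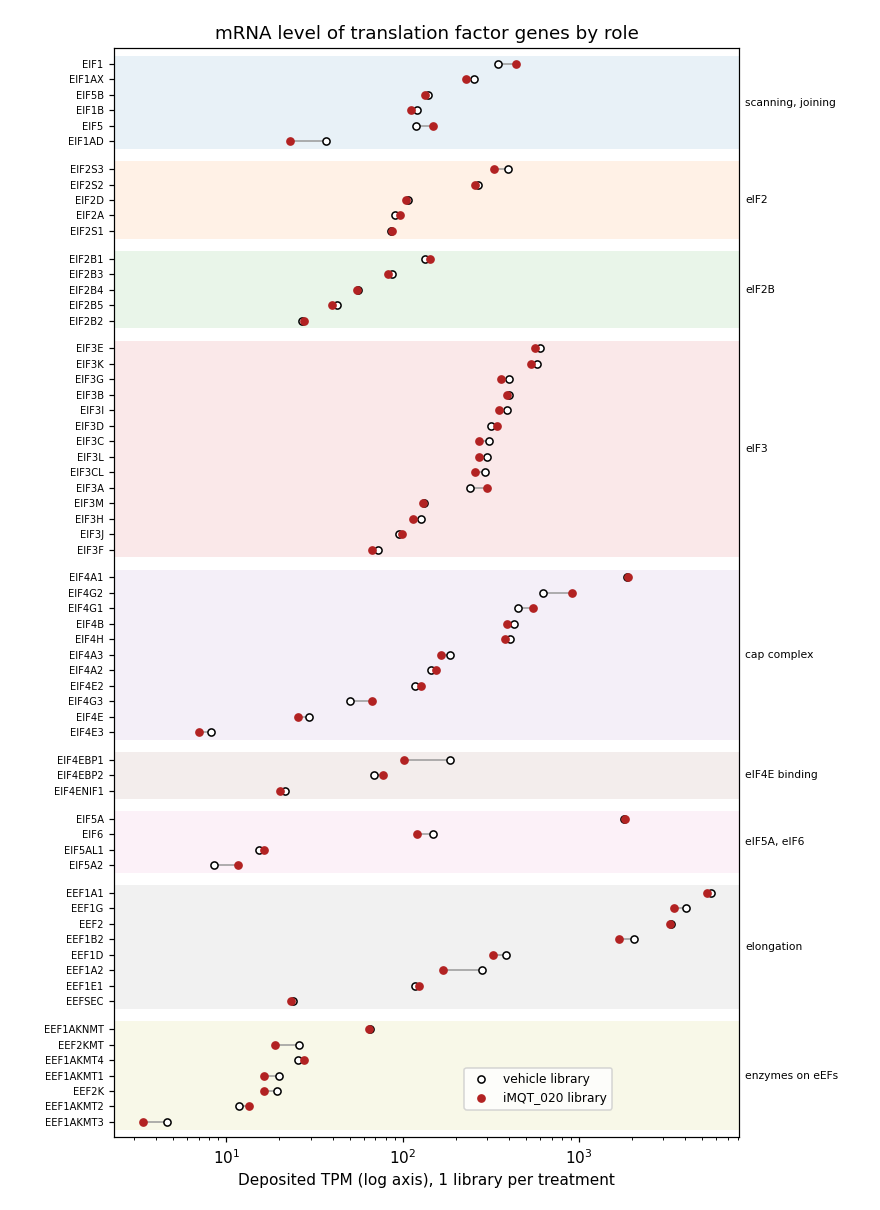
Deposited TPM (x axis, log scale) of the 63 measured translation factor genes in the vehicle library (open circles) and the iMQT_020 library (filled circles), grouped by role. The level spans from EEF1AKMT3 at 4.60 and 3.36 TPM to EEF1A1 at 5574 and 5316 TPM, and the longest connecting lines belong to EIF4EBP1, EEF1A2, EIF1AD and EIF4G2.

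The largest difference of all members was in EIF4EBP1, which encodes 4E-BP1, the mTORC1 substrate that sequesters eIF4E. This gene, on chromosome 8, had 4577 counts with vehicle and 2149 with iMQT_020, or 186 and 102 TPM. Its log2 ratio was −0.91 (−0.99 to −0.84), 1.88-fold lower, and 4.01% of measured genes had a lower ratio. No other gene overlaps it in the RefSeq table. Its transcript is short (827 bases) with 62.9% G and C, and the centred ratio was −0.48. EIF4EBP2, the other abundant 4E-BP gene, went the other way by a small amount, with 15423 and 14869 counts and a log2 ratio of 0.12 (0.09 to 0.16; −0.02 centred).

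The make-up of the 4E-BP mRNAs therefore differed between the libraries. By TPM, EIF4EBP1 was 2.69 times EIF4EBP2 with vehicle and 1.31 times with iMQT_020. EIF4E itself, the cap-binding protein, had 9920 and 7360 counts, 29.4 and 25.6 TPM, and a log2 ratio of −0.25 (−0.30 to −0.21; centred −0.34). The TPM of EIF4E is low for its counts: EIF2B1, with 9594 and 8732 counts and a canonical transcript of 2397 bases beside 2427 for EIF4E, had 134 and 143 TPM. The length the authors used for EIF4E is not given in the sources used here, and each level relative to EIF4E rests on it. EIF4EBP1 and EIF4EBP2 together were 8.67 times EIF4E by TPM in the vehicle library and 7.02 times in the other. EIF4ENIF1, which carries eIF4E to the nucleus and to processing bodies, was at 0.01 with an interval across 0. EIF4EBP3 had 0 and 1 counts, too few for a ratio, while ANKHD1-EIF4EBP3, the read-through model that contains it, had 6537 and 7113.

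All 3 genes for eIF4G scaffolds were higher with iMQT_020 (47.3% of all measured genes), and EIF4G2 had the highest ratio of any member. EIF4G2, which encodes DAP5, an eIF4G-like protein that lacks the eIF4E binding site, lies on chromosome 11 (10797046 to 10808926) and had 70198 counts with vehicle and 88070 with iMQT_020. It was at 621 and 909 TPM, a log2 ratio of 0.50 (0.49 to 0.52), 1.42-fold higher, and 91.6% of measured genes had a lower ratio. EIF4G3 had 9539 and 10801 counts and a ratio of 0.36 (0.32 to 0.40). EIF4G1, the main scaffold of eIF4F, had 72079 and 75270 counts and a ratio of 0.24 (0.22 to 0.25). All 3 kept their side with GC content and length centred, at 0.49, 0.25 and 0.29. The level of EIF4G1 relative to EIF4E by TPM was 15.2 with vehicle and 21.4 with iMQT_020.

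The eIF4A helicases and their stimulators ran from −0.20 to 0.06. EIF4A1, the main eIF4A, was at 1877 and 1882 TPM with a log2 ratio of −0.04 (centred 0.02), and EIF4A2, its paralog, at 144 and 155 TPM with a ratio of 0.06. EIF4A3, the eIF4A-like subunit of the exon junction complex, was at −0.20. The RNA-binding stimulators EIF4B and EIF4H were at −0.18 and −0.14. EIF4E2, the 4EHP repressor, was at 118 and 127 TPM and had a ratio of 0.10. EIF4E3 was low at 8.20 and 7.04 TPM. Its log2 ratio was −0.05 by counts with an interval across 0, −0.19 by deposited TPM and −0.21 centred. EIF4E1B, an oocyte form, had 2 counts in each library.

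**Figure D3:**
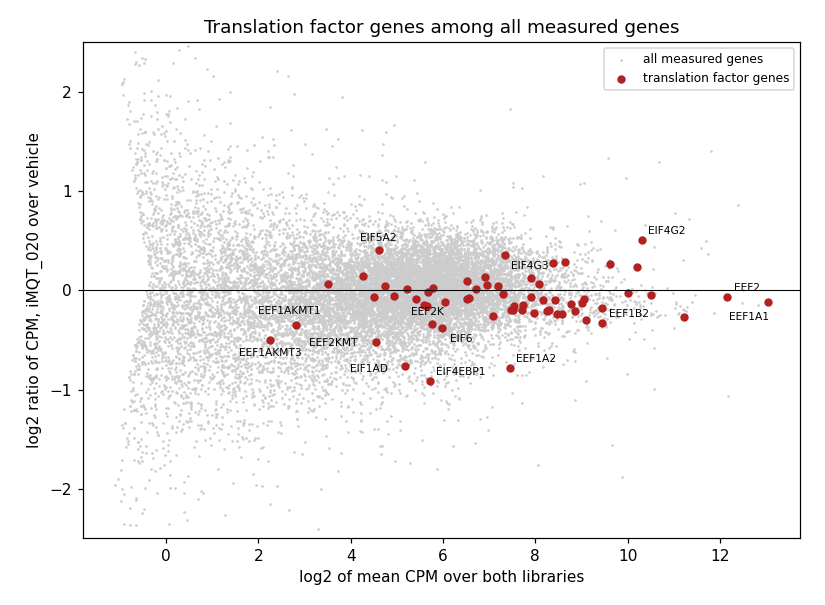
Log2 ratio of CPM, iMQT_020 over vehicle (y axis), against the log2 of mean CPM (x axis) for all measured genes (grey) and the 63 translation factor genes (red). EEF1A1 is the rightmost gene, and EIF4G2 at 0.50 and EIF4EBP1 at −0.91 are the highest and lowest members; 43 genes beyond 2.5 on the y axis are not drawn.

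The 14 genes for eIF3, the large scaffold on the small ribosomal subunit, had a median log2 ratio of −0.15. Of these, 11 lay below 0 (52.7% of all measured genes). Beyond 0.32 there were 0 in either direction (17.4% higher and 21.8% lower of all measured genes). Centred, the median was −0.11 and 10 were below 0 (49.8% of all genes so centred). EIF3F (−0.37) and EIF3H (−0.33) were then lower beyond 0.32 (17.2%). The TPM of the 14 genes ran from 72.3 (EIF3F) to 596 (EIF3E) in the vehicle library and from 67.3 to 564 with iMQT_020. EIF3E had a log2 ratio of −0.13. EIF3A, the largest subunit, had the highest ratio, with 47880 and 50785 counts and 0.26 (0.24 to 0.28; centred 0.12), while EIF3D, the subunit with cap-binding activity of its own, was at 0.07 (centred 0.13) and EIF3J at 0.01 (centred −0.08). EIF3B, the core subunit that binds EIF3A, was at −0.08. The lowest without centring were EIF3CL and EIF3C, both at −0.24 (centred −0.14 and −0.13), followed by EIF3L at −0.21 and EIF3H at −0.20. EIF3C and EIF3CL are near-identical copies on chromosome 16 whose reads cannot be told apart, and their summed counts of 53218 and 39910 gave the same −0.24. Each is counted separately among the 11 below 0.

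The eIF2 complex and its exchange factor eIF2B are where the stress response to amino acid shortage acts. Of the 10 measured genes for eIF2, eIF2B and the separate factors EIF2A and EIF2D, 0 were beyond 0.32. Among all measured genes, 17.4% were higher and 21.8% lower beyond that bound. Centred, EIF2S3 alone was lower beyond it (17.2% of all genes so centred). EIF2S1, the α subunit that the stress kinases phosphorylate, had 10642 and 9185 counts and a log2 ratio of −0.04 (−0.08 to 0.00; centred −0.21). EIF2S2, the β subunit, was at −0.10. EIF2S3, the γ subunit that binds GTP, was lower, with 40606 and 29175 counts and a ratio of −0.30 (−0.32 to −0.28; centred −0.37). Its copy EIF2S3B had 13 and 15 counts. EIF2A and EIF2D, which can bring initiator tRNA by other routes, were at 0.14 and −0.09 (the latter 0.05 centred). The 5 eIF2B genes ran from −0.14 (EIF2B5, the catalytic ε subunit) to 0.04 (EIF2B1, the α subunit and the most abundant), with EIF2B3, EIF2B4 and EIF2B2 at −0.12, −0.08 (centred 0.13) and −0.02, and their summed TPM was 347.1 and 347.2.

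Among factors of start codon selection and subunit joining, neighbours in the pathway went opposite ways. EIF1, which keeps the scanning ribosome open, had 24210 and 26171 counts and a log2 ratio of 0.29 (0.26 to 0.31), and EIF5, the GTPase activator of eIF2, 20303 and 21727 counts and 0.27 (0.25 to 0.30). EIF1AX, the eIF1A gene of the X chromosome, was at −0.20 (centred −0.38). EIF1B, a paralog of EIF1, was at −0.16 (centred −0.01), and EIF5B, the subunit joining GTPase, at −0.10 (centred −0.29). The share of EIF1B in the TPM of EIF1 and EIF1B was 25.9% in the vehicle library and 20.4% in the other. EIF1AD, which encodes a protein with an eIF1A-like domain, lies on chromosome 11 (65996545 to 66002157) and had 3068 counts with vehicle and 1606 with iMQT_020. Its TPM was 37.0 and 23.0, and its log2 ratio −0.76 (−0.85 to −0.67). The centred ratio of EIF1AD was −0.75, the only one of the 3 members named at 1.5-fold to keep that distance.

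EIF5A, the factor that carries hypusine and eases peptide bond formation, was at 1789 and 1821 TPM with a log2 ratio of −0.03 (centred 0.21). Its paralog EIF5A2 was far less abundant, at 8.52 and 11.7 TPM, with 1406 and 1651 counts and a ratio of 0.41 (0.30 to 0.51; centred 0.22). EIF5AL1, an EIF5A-like copy, was at 0.04 with an interval across 0. EIF6, which holds the large ribosomal subunit apart from the small one, had 4777 and 3249 counts and a ratio of −0.38 (−0.44 to −0.32; centred −0.16).

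The ratios followed transcript length and GC content in this set as they did over all genes. Spearman's rho across 62 members was −0.31 with GC content and 0.31 with length, beside −0.34 and 0.32 across 13853 measured genes; genes are not independent replicates and share the 2 libraries. The 10 members with the longest transcripts (5405 bases or more) had a median log2 ratio of 0.18, and the 10 with the shortest (1103 bases or less) −0.18. EIF4EBP1, EIF6 and EEF1B2 were among the short ones, and EIF4G1, EIF4G3, EIF3A, EIF5 and EIF5A2 among the long ones. The part of length and GC content in the differences was not tested beyond the centring. With centring, 36 of 62 members (58.1%) lay below 0, beside 49.8% of all genes so centred, and EIF1AD alone was at least 1.5-fold lower (7.33% of all genes). Beyond 0.32, 3 members were higher (15.2% of all genes), EIF4G2, EIF1 and EEF1AKMT4, and 11 were lower (17.2%). These were EIF1AD, EEF1AKMT3, EEF1A2, EIF4EBP1, EEF2K, EIF1AX, EIF2S3, EIF3F, EEF2KMT, EIF4E and EIF3H.

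**Figure D4:**
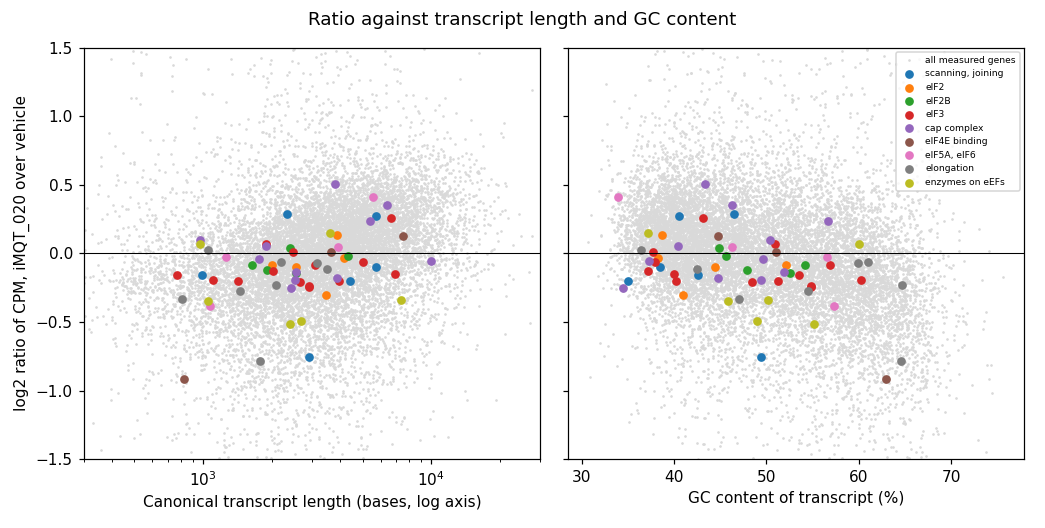
Log2 ratio of CPM, iMQT_020 over vehicle (y axis), against canonical transcript length (left, log axis) and GC content in percent (right) for all measured genes (grey) and translation factor genes coloured by role. Members follow the grey cloud, with rho of 0.31 for length and −0.31 for GC content; 239 genes beyond 1.5 on the y axis are not drawn.

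The whole set took 3.25% of the counts of the vehicle library (95% Wilson interval 3.24% to 3.25%) and 3.10% of the iMQT_020 library (3.10% to 3.11%). The difference was in the genes with EEF symbols, 1.75% (1.75% to 1.76%) and 1.60% (1.59% to 1.60%), while the genes with EIF symbols took 1.493% (1.490% to 1.496%) and 1.507% (1.504% to 1.510%). By the deposited TPM the sums were 15971 and 14541 for EEF genes and 13108 and 13177 for EIF genes.

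Other genes of the pathway were read from lists outside the rule. Of all measured genes, 47.3% were above 0, and when centred 49.8% were below 0. Termination and recycling factors had 5 of 5 measured above 0 and a median log2 ratio of 0.09 (centred 3 of 5, median 0.02), from ABCE1, which splits ribosomes, at 0.00 with an interval across 0, to PELO, which rescues stalled ones, at 0.19. Of 12 genes for poly(A) binding and mRNA handling, 10 were above 0 and the median was 0.08 (centred 6 of 12, median 0.01). DHX29, a scanning helicase, was highest at 0.38 with 5159 and 5932 counts, and SECISBP2, a selenoprotein factor, lowest at −0.24. PABPC1, the main poly(A)-binding protein, and LARP1, which binds tract-bearing mRNAs, were at 0.31 and 0.30. These 2 were chosen after their values were seen. The enzymes that modify eIF5A and eEF2 had 7 of 9 below 0 (52.7% of all measured genes) with a median of −0.15 (centred 6 of 9, median −0.07). DHPS, which makes hypusine on eIF5A, had 2202 and 1301 counts and a ratio of −0.58 (−0.68 to −0.48; centred −0.35), and DNAJC24 was at 0.14.

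The signalling genes above eIF4E had a median of 0.03 over 9 genes (centred 0.16), with the kinase MTOR at 0.31 and the mTORC1 subunit MLST8 at −0.47 (centred −0.05). Genes for the eIF2α kinases and phosphatase had a median of 0.14 over 9 (centred 0.03). PPP1R15A, the stress-induced phosphatase subunit GADD34, had 2694 and 3353 counts and a ratio of 0.49 (0.42 to 0.57), and EIF2AK3, the kinase PERK, was lowest at −0.19. The mitochondrial translation factors had a median of −0.12 over 9 measured genes (centred −0.04), from TUFM, the mitochondrial elongation factor Tu, at −0.43 with 24338 and 16005 counts to MTIF3, an initiation factor, at 0.31. Beyond 0.32, 1 of 12 poly(A) and mRNA handling genes and 2 of 9 kinase and phosphatase genes were higher (17.4% of all measured genes), and 2 of 9 modifying enzymes, 1 of 9 signalling genes and 1 of 9 mitochondrial factors were lower (21.8%), with 0 of 5 termination factors on either side.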

How the data were processed

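RNA was read in 1 library per treatment. Per the labels' protocols, TRIzol was used for total RNA, and HISAT2, running Bowtie2, placed the reads on GRCh38. The submitters' processing notes also list StringTie and edgeR, without version or role. The authors deposited estimated counts per gene (whole numbers), FPKM and TPM for 46427 rows. A shorter deposited table holds the same FPKM for 20787 rows. How reads were assigned to strands and genes is not stated in the labels, so overlapping genes cannot be told apart. Columns were assigned by name, and 0 sample columns were left over.

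Counts were scaled by TMM (edgeR 4.0.16, R 4.3.3) over all rows. The log2 ratio of CPM used a prior count of 0.5. Intervals at 95%, Clopper-Pearson (exact) for ratios and Wilson for shares, treat the estimates as reads and cover counting error alone. Levels are compared between genes by TPM alone. With 1 library per treatment there was no test. The calculation was tested on simulated counts with counting error alone, which cannot show how it fares under variation between cultures. GC content and length came from canonical GENCODE 44 transcripts (93.6% of measured genes, 62 of 63 members), and ratios were centred on the median of joint bins, 10 by 10. Positions and starts came from RefSeq (GRCh38.p14), matched on gene ID for all 66 members.

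The members and lists were chosen with earlier results of these data known. Named genes were the most abundant, the 2 highest and the 2 lowest of each role, paralogs, all members 1.5-fold apart and all under the count minimum, and the highest and lowest of each outside list; further members were added to complete a role. Alternatives were 3 other scalings (upper quartile, library totals, and the median of ratios of DESeq2 1.42.0), a minimum of 1, 10 or 1000 counts, a prior count of 5, TPM or FPKM on log2(value + 1), totals without mitochondrial genes and rRNA, sums with read-through genes or pseudogenes, and the centring. Python 3.11.15 with numpy 2.4.6, pandas 2.3.3, scipy 1.17.1 and matplotlib 3.10.9 was used.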

Additional observations from a re-analysis of the deposited data

How the results depend on the processing

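No paired analysis was possible because each treatment had 1 library, and for the same reason no library could be left out. Over 13 alternatives, of which the sums with pseudogenes were chosen after seeing the data, 0 members beyond 0.32 on the log2 scale changed direction, and 59 of 63 kept their side of 0 under every scaling; EIF2B2, EIF3J, EIF4ENIF1 and EEF1E1, all within 0.03 of 0, did not. Over all alternatives 48 kept their side and 15 did not, the others being EEF1D (−0.28 to 0.07), EEF2 (−0.10 to 0.10), EEFSEC, EIF2B4, EIF2D, EIF2S1, EIF3G (−0.22 to 0.10), EIF3K, EIF4A1, EIF4EBP2 and EIF5A (−0.06 to 0.21). The median of all genes moved by less than 0.1 log2 under each scaling. A scaling shifts all ratios almost alike, and a count minimum leaves each ratio as it was. Neither kind of alternative could therefore turn a member beyond 0.32. With a minimum of 1 count, 1 member was at least 2-fold and at least 1.5-fold higher, EIF4EBP3 with 0 and 1 counts, and 5 were beyond 0.32 above 0, where 14.1%, 19.7% and 28.7% of all genes were. With deposited TPM, 5 members were beyond 0.32 below 0 (16.3% of all genes); the cause was not tested. Centred on GC content and length, 1 member was at least 1.5-fold lower and the median of members was −0.044. The share held by the members was 2.91% (vehicle) and 2.77% (iMQT_020) of deposited TPM, and 3.39% and 3.28% of counts without mitochondrial genes and rRNA. Scaled by the median of ratios, 6 members were beyond 0.32 below 0 (20.2% of all genes), and by the upper quartile 10 (23.5%). With FPKM they were 6 (15.4%), and without mitochondrial genes and rRNA 7 (20.6%). EEF1B2, at −0.33 under the main scaling, was inside the bound by the median of ratios (−0.31) and by TPM (−0.28). The other counts and medians stayed within 1.5 times, or within the order-statistic interval of the median. Counting error is small for all but the least abundant members, and variation between cultures is unknown.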

Other observations

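Processed pseudogenes of these factors held many reads. EEF1A1 has 37 pseudogene rows in the table, which together had 81587 counts with vehicle and 65537 with iMQT_020, 12.3% and 12.1% of the reads of EEF1A1 and its pseudogenes. Their log2 ratio was −0.14 (−0.15 to −0.12), next to −0.12 for EEF1A1, and summing them gave −0.12. EEF1A1P5 alone had 58653 and 47163 counts, or 1127 and 1057 TPM. Whether these reads came from the pseudogenes or from EEF1A1 cannot be told from gene totals. The pseudogene of EIF1AX held 7.23% and 7.52% of the summed reads, those of EIF4H 6.60% and 6.66%, and those of EIF4E 9.56% and 9.99%.

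Some read-through models that include a member had ratios unlike that of the member. SENP3-EIF4A1 had 266 and 451 counts, a log2 ratio of 0.94 (0.72 to 1.16), while EIF4A1 was at −0.04 and SENP3 at −0.21. The model held 0.270% and 0.531% of its reads and those of EIF4A1. ANKHD1-EIF4EBP3 was at 0.30 (0.25 to 0.35), beside 0.13 for ANKHD1. EEF1E1-BLOC1S5, with 256 and 189 counts, was at −0.26 (−0.54 to 0.02).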
